A study of Mus musculus with 20 samples.

Results

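Astroglial and neural stem markers, 10 genes used to place a neural cell between a stem cell and an astrocyte, were read on 20 arrays of mouse brain progenitor cell lines. The genes were taken by name: Nes, Vim and Gfap of the intermediate filaments, Prom1 and Fabp7 of neural stem cells and radial glia, the glutamate transporters Slc1a3 and Slc1a2, and S100b, Aldh1l1 and Aqp4 of astrocytes. All 29 probe sets that the platform annotation gives to these symbols alone were used, out of 34945 such probe sets for 18193 genes. All 10 genes had at least 1 probe set, and all 10 lay above background on every array of at least 1 group, so none was lost to a filter.

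The arrays fell into 4 groups of 5, total RNA of progenitors of the mouse brain, labelled as cell lines. Embryonic control and postnatal control are progenitors of embryonic and of postnatal origin that carry no named modification. Embryonic transduced cells were genetically modified by transduction, and postnatal transformed cells were transformed, but the labels name neither the introduced sequence nor the transforming agent, and give no strain, exact age, brain region or medium. They number the samples of a group without saying that these came from separate cultures, so a p-value here reflects the spread among the deposited samples alone, and that spread may be technical. Transduction was paired with embryonic cells and transformation with postnatal cells, so what was done and the age of the cells cannot be told apart when the responses are compared.

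Radial glia are the stem cells of the developing brain, and astrocytes and oligodendrocytes arise from them or from progenitors that follow. Nestin (Nes) and vimentin (Vim) build the filaments of immature cells, and GFAP (Gfap) joins or replaces them as astrocytes form or react to injury. Prominin 1 (Prom1, CD133) is a surface protein of stem cells, and Fabp7 carries fatty acids in radial glia. GLAST (Slc1a3) and GLT-1 (Slc1a2) clear glutamate, GLAST from the radial glial stage on and GLT-1 mostly in mature astrocytes. S100b is a calcium-binding protein of astrocytes that oligodendrocyte lineage cells also make, Aldh1l1 is a folate enzyme widely used to mark astrocytes, and Aqp4 is the water channel of astrocyte end feet.

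Promoter sequence could be read for 9 of the 10 genes from the RefSeq table of build GRCm38.p6. The 250 bases before the start are printed for 4 genes on which the comparisons turn: Fabp7 and Slc1a3, which fell together in transduced embryonic cells, and Gfap and S100b, which went opposite ways in transformed postnatal cells. They run 5′ to 3′ on the gene's strand from chr10:57784673-57784922 (plus, Fabp7), chr15:8710808-8711057 (minus, Slc1a3), chr11:102897201-102897450 (minus, Gfap) and chr10:76253586-76253835 (plus, S100b). Capitals mark matches, on either strand, to the motifs TATAAA (the letters of a core promoter box), GGGCGG (GC box), TTCNNNGAA (STAT), TGGGAA (RBPJ, the Notch effector), ACAAAG (SOX) and TTGGCA (part of a nuclear factor I site).
Fabp7: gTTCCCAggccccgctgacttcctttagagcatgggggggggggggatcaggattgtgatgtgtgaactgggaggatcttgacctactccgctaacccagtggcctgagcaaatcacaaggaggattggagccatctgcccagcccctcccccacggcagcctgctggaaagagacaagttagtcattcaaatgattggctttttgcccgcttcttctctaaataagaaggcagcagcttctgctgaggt
Slc1a3: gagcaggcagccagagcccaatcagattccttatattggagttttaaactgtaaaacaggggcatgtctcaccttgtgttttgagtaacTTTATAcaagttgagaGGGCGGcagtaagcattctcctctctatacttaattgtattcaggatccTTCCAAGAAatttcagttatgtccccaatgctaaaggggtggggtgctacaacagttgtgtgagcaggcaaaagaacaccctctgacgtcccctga
Gfap: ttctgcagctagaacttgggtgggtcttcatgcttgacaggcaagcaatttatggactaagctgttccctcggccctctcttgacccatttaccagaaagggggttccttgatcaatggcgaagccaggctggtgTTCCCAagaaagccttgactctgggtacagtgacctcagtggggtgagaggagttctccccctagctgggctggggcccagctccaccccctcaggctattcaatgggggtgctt
S100b: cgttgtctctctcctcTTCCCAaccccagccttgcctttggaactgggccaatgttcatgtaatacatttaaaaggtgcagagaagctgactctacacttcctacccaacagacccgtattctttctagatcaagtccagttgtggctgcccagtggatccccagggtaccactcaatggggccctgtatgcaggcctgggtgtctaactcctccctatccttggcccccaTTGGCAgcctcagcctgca

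The STAT motif was present in the Slc1a3 window, 96 to 88 bases before the start, and is present in 7.02% of 32851 promoter windows of this length. The Gfap, Fabp7 and S100b windows each held the RBPJ motif, found in 21.6% of all windows, at 115 to 110, 249 to 244 and 234 to 229 bases before the start. S100b also had the nuclear factor I motif 19 to 14 bases before the start (12.3% of all windows), and Slc1a3 the letters TATAAA on the opposite strand, 161 to 156 bases before the start (12.4%), and a GC box at 145 to 140 (32.7%). A working core promoter box lies closer to the start than that. The SOX motif (16.5%) was not in these 4 windows. These are matches of letters only, and the arrays measured no binding.

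Each array gave 1 linear intensity per probe set, called its signal, and each gene is represented by its brightest probe set, so a signal can be compared between arrays but not between genes. A background level was taken on each array from 27 control probe sets for bacterial transcripts and lay between 107 and 221. Changes are differences of mean log2(signal + 16), each with its standard error (SE) from a limma fit over all 20 arrays and a p adjusted by Benjamini-Hochberg over all 18193 genes. The groups of a gene share a single estimate of spread in this fit. For a gene most uneven in postnatal control, the SE is therefore too wide for comparisons without that group. It is too narrow where postnatal control is compared with another group. A gene is said to have risen or fallen where this p was under 0.05 and the change at least 2-fold. For a gene under background throughout a group the fold is given as a lower bound (at least N-fold), and for a gene above it on only 1 to 3 arrays of a group the mean signals replace the log2 change. In RNA of whole cultures, fewer cells of a type and less RNA per cell cannot be told apart.

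Arrays of a group correlated with r between 0.947 and 0.970 across genes, each by its brightest probe set, and 61.3% to 73.2% of probe sets lay above background. The progenitor transcription factors Olig2 and Sox2 were bright on every array, from 34079 to 77016 for Olig2 and from 35319 to 65446 for Sox2. Of 8 microglial genes 1 to 5 lay above background on an array, with summed signals of 1086 to 3371 over all groups, and 7 endothelial genes summed to 398 to 2201. Fibroblast and ependymal genes were as dim, at sums of 566 to 2706 for 7 genes and 349 to 1643 for 6. Postnatal control arrays 4 and 5 stood apart from arrays 1 to 3: the proliferation marker Mki67 read 37266, 34816 and 35822 on arrays 1 to 3 and 5929 and 4351 on arrays 4 and 5. Values that rest on this group are therefore also given without those arrays where a call changed or the value moved by over 1.5 times.

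**Figure D1:**
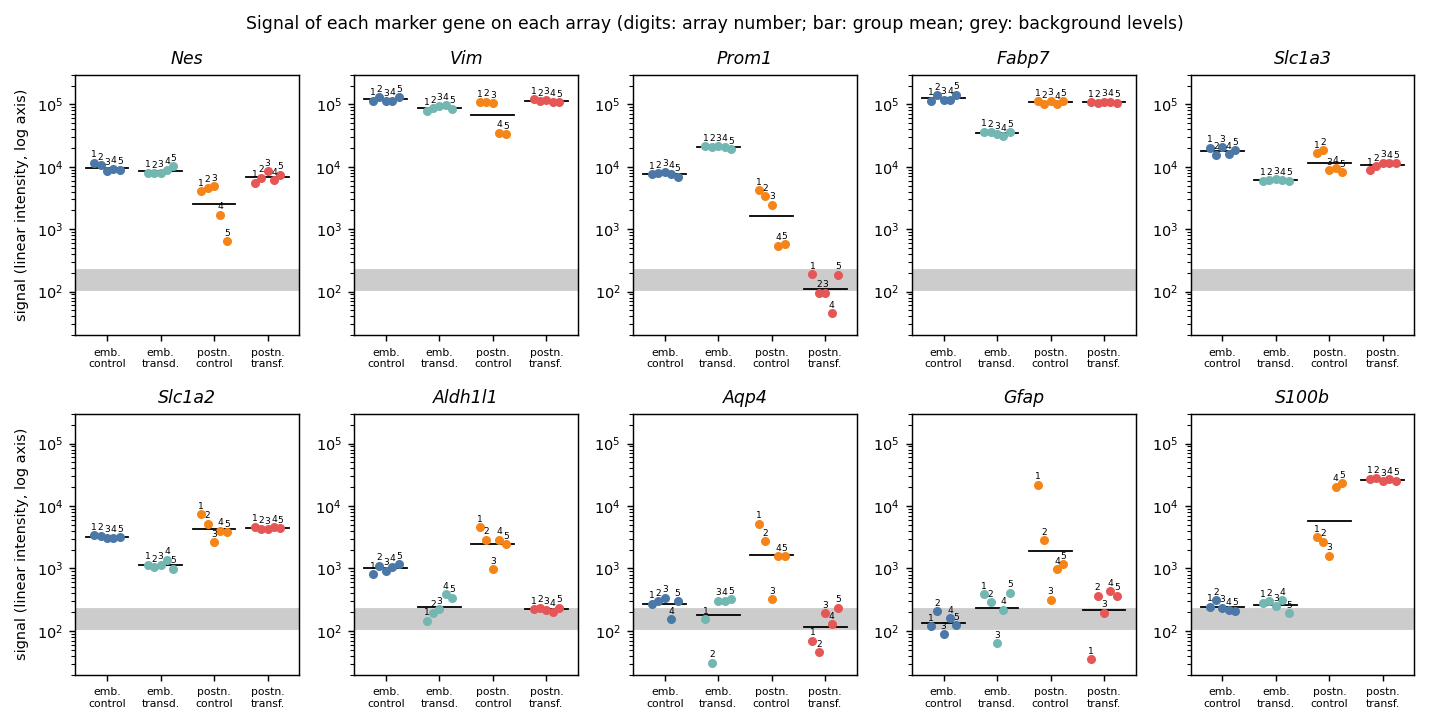
Signal of the 10 genes on each array (linear intensity on a log axis), by group, with the array number above each point, a bar at the group mean of log2(signal + 16) and a grey band over the range of background levels, 107 to 221. The postnatal control points are the most scattered, from 318 to 21873 for Gfap, while the 5 points of Prom1 in postnatal transformed cells lie between 45.4 and 192, in or under the band.

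The first question the design poses is what transduction did to these markers in embryonic progenitors. Prom1 rose, and Fabp7, both glutamate transporters and Aldh1l1 fell, while the filament genes Nes and Vim, S100b, Aqp4 and Gfap were not called. So 1 of 10 genes was higher, where 8.61% of all genes were, and 4 were lower, where 5.74% were. The median change of the 10 was -0.48 on the log2 scale against 0.08 for all genes. Arrays of both groups did not overlap for 6 of the 10, against 34.8% of all genes.

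Among the filament genes, Nes read 11611, 10519, 8644, 9240.3 and 8921 in embryonic control and 7984, 7949, 8049.6, 8955 and 10229 in transduced cells. The groups overlapped, with transduced arrays 4 and 5 inside the control range, and the change was -0.18 ± 0.36 (SE; limma adjusted p = 0.761). Vim read 113874, 128997, 111550.0, 114247 and 131096 in control and 79334, 87044, 95584, 97064 and 85364 in transduced cells. Every transduced array lay below every control array, yet the difference of -0.43 ± 0.26 was not called by the fit (adjusted p = 0.213). That SE comes from the shared spread: the SD of Vim on the log2 scale was 0.11 and 0.12 in these groups and 0.91 in postnatal control. In a limma fit of the compared groups alone, with the array number as a block, the adjusted p was 0.000512. The difference was still under 2-fold. Gfap, at 119, 207, 88.5, 161 and 123, was below background on all 5 control arrays. In transduced cells it read 386, 289.8, 63.6, 217 and 411, above background on 4 arrays. The ranges overlapped through array 3, and Gfap was not called (adjusted p = 0.535).

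The stem and radial glial pair went opposite ways. Prom1 stood at 7629.9, 7853, 8336, 7677 and 6973 in control and at 21150.3, 21036, 21308, 20959.6 and 19234 after transduction. All transduced arrays were far above all control arrays, and the gene rose by 1.43 ± 0.44 on the log2 scale (adjusted p = 0.0123). Fabp7, the fatty acid carrier of radial glia, read 113835, 140889, 119419, 118683 and 143587 in control and 36638, 35605, 32981, 30978 and 35934 in transduced cells. Here every transduced array was lower, and Fabp7 fell by 1.88 ± 0.07 (adjusted p = 1.77e-15).

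Both glutamate transporters fell by similar amounts. Slc1a3 had signals of 20232, 15587, 20484, 16006 and 18316 in control and 6001, 6095, 6308, 6073 and 5966 in transduced cells. The transduced arrays were close together and all below the control arrays, a fall of 1.56 ± 0.17 (adjusted p = 1.18e-07). Slc1a2 had 3381, 3348, 3132, 3117 and 3178 in control and 1141, 1043, 1155, 1390.5 and 997 in transduced cells. These groups did not overlap either, and the gene fell by 1.49 ± 0.17 (adjusted p = 2.46e-07).

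Of the astrocyte genes, Aldh1l1 read 814, 1109, 915, 1062 and 1175 in control. After transduction it read 146, 196, 224, 390.4 and 343, above background on 3 arrays, so that its mean went from 1015 to 260 (adjusted p = 1.65e-05). The groups did not overlap and Aldh1l1 was called lower. S100b stayed dim in both groups, at 243, 314, 235, 214 and 212 in control and 283, 302, 248, 312 and 192 in transduced cells. The groups overlapped throughout, with a difference of 0.12 ± 0.51 (adjusted p = 0.887). Aqp4 read 274, 300.2, 343, 154 and 299 in control and 155, 30.8, 303, 306 and 325 in transduced cells. These overlapped as well, with array 4 low in control and arrays 1 and 2 low in transduced cells (-0.53 ± 0.61, adjusted p = 0.561).

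The same question was asked of transformation in postnatal progenitors. Nes and S100b rose, Gfap, Aldh1l1, Aqp4 and Prom1 fell, and Fabp7 and both glutamate transporters differed by -0.12 to 0.03 on the log2 scale without being called. That is 2 of 10 higher, where 9.56% of all genes were, and 4 of 10 lower, where 6.4% were. The median change was -0.06, and -0.0024 for all genes. Groups did not overlap for 5 of the 10, against 32.2% of all genes.

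Gfap, the filament gene of astrocytes, was above background on all 5 postnatal control arrays but very uneven, at 21873, 2843, 318, 976 and 1163. Transformed cells read 35, 368, 197, 431 and 366, above background on 4 arrays. Control array 3 lay inside the transformed range, so the groups overlapped, and array 1 stood far above the rest. Gfap fell by 3.01 ± 0.80 (adjusted p = 0.00368). Without control array 1 the fall was 2.13 (adjusted p = 0.00970) and without array 3 it was 3.64, and the call was lost in a fit of these 10 arrays alone with the array number as a block (adjusted p = 0.0630).

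Nes read 4095, 4640.5, 4829, 1705 and 648 in postnatal control and 5574, 6638, 8503, 6133 and 7429 in transformed cells. All transformed arrays were above all control arrays, and control arrays 4 and 5 were the lowest. Nes rose by 1.42 ± 0.36 (adjusted p = 0.00251), but by less than 2-fold without arrays 4 and 5 (0.59) or without array 5 alone (0.94). Vim had 107244, 110412, 104638, 34843 and 33009 in control and 120462, 112173, 119287, 109799 and 108924 in transformed cells. Arrays 4 and 5 were again low, array 2 reached into the transformed range, and the difference of 0.75 ± 0.26 was under 2-fold (adjusted p = 0.0230). Without arrays 4 and 5 it was 0.09.

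Prom1 read 4183, 3374, 2460.4, 545 and 579 in postnatal control. In transformed cells it read 192, 96.3, 95.7, 45.4 and 185, above background on 1 array. The groups did not overlap even though control arrays 4 and 5 were low, and the mean went from 2228 (3339 over arrays 1 to 3) to 123 (adjusted p = 3.99e-07). Fabp7 was level, at 112127, 102612, 113405, 99686 and 113191 in control and 108547, 105955, 110350.0, 110068 and 105740.0 in transformed cells. The transformed range lay inside the control range, and the difference was 0.00094 ± 0.07 (adjusted p = 0.993).

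Slc1a3 read 16406, 18232, 8829.9, 9555 and 8171 in postnatal control and 8713, 10293, 11669.9, 11392 and 11327 in transformed cells. Control arrays 1 and 2 were the highest of the 10 arrays and array 5 the lowest, and the difference was -0.12 ± 0.17 (adjusted p = 0.628). Slc1a2 had 7334, 5190.4, 2628, 4049 and 3835 in control and 4675, 4319, 4283, 4542 and 4396 in transformed cells. The transformed arrays lay between control array 2 and the lower control arrays, with a difference of 0.03 ± 0.17 (adjusted p = 0.916).

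S100b read 3184, 2696, 1591, 20293 and 23080.2 in postnatal control and 27401, 28152, 25129, 26901 and 25598 in transformed cells. Control arrays 4 and 5 came close to the transformed arrays without reaching them. S100b rose by 2.20 ± 0.51 (adjusted p = 0.00107), and by 3.47 without arrays 4 and 5. Aldh1l1 had 4595, 2872, 975, 2887 and 2432 in control and 223, 236, 217, 203 and 234 in transformed cells. Every control array, the low array 3 included, was above every transformed array, and Aldh1l1 fell by 3.38 ± 0.31 (adjusted p = 6.63e-09). Aqp4 went from 5181, 2707, 325, 1571 and 1579.9 in control to 69.6, 45.3, 191, 127 and 235 in transformed cells, above background on 3 of these. The groups did not overlap, and the mean of 2273 in control stood against 134 (adjusted p = 3.68e-05). So S100b rose where Gfap, Aldh1l1 and Aqp4 fell in the same cells.

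**Figure D2:**
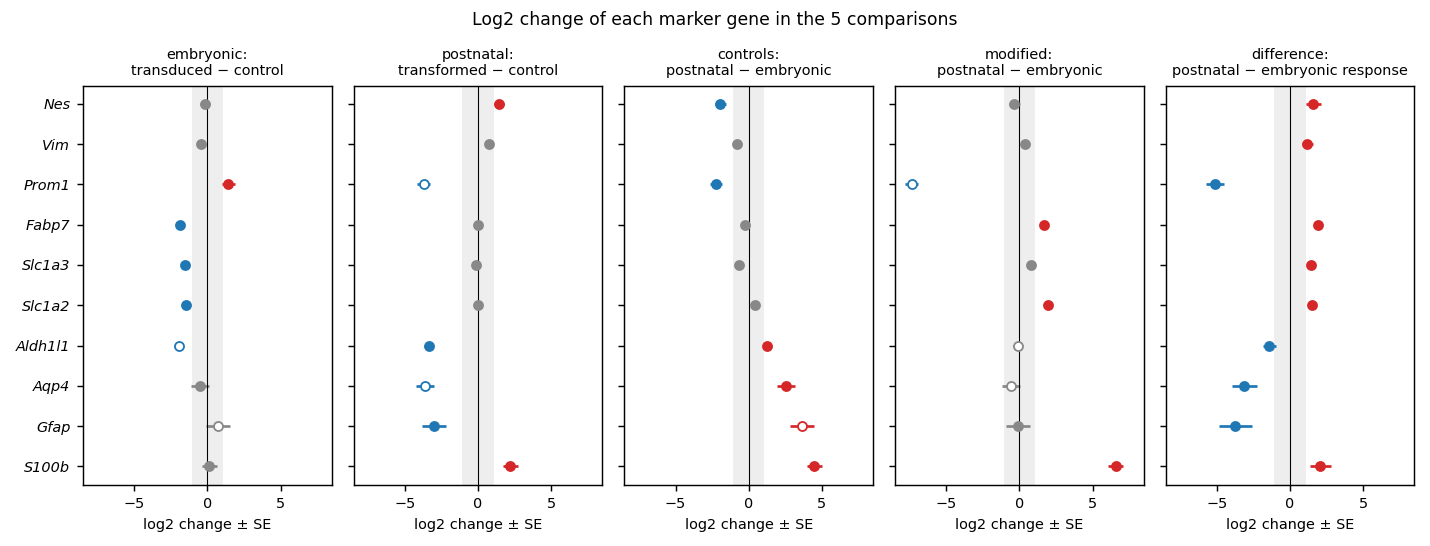
Log2 change ± SE of the 10 genes in each comparison, red for risen, blue for fallen and grey for not called, with open points in the first 4 panels where a group lay at or under background on at least 2 arrays and a grey band at less than 2-fold. Fabp7 lies at -1.88 in the embryonic panel and 0.00094 in the postnatal panel, Prom1 at 1.43 and far to the left, and in the last panel all 10 genes are coloured.

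Whether the 2 responses differed was tested with an interaction term, the postnatal change minus the embryonic one. All 10 genes passed, 6 higher and 4 lower, where 9.36% and 9.75% of all genes did. The median difference was 1.31 over the 10 and -0.07 over all genes. Each value holds all 4 groups, and transduction is set against transformation in it. The fitted sizes for Prom1, Aldh1l1, Aqp4 and Gfap depend on the offset of 16, since a group of each lies near background. Prom1 was called lower (adjusted p = 7.39e-07): its mean went from 7694 to 20738 in embryonic cells and from 2228 to 123 in postnatal cells. Fabp7 (1.88 ± 0.09, adjusted p = 1.16e-12), Slc1a3 (1.44 ± 0.24, adjusted p = 3.98e-05) and Slc1a2 (1.52 ± 0.24, adjusted p = 2.15e-05) fell in embryonic cells and had no called change in postnatal cells. Aldh1l1 was called lower in both responses and in their difference, at a fitted -1.41 ± 0.43 (adjusted p = 0.0124). Its mean went from 1015 to 260 in embryonic cells and from 2752 to 223 in postnatal cells. Both modified groups ended near background, so the difference also holds the higher starting level of postnatal control.

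Gfap differed by -3.74 ± 1.13 (adjusted p = 0.0107), by -2.86 without postnatal control array 1 and by -4.37 without array 3, and Aqp4 by -3.12 ± 0.87 (adjusted p = 0.00599). Nes differed by 1.60 ± 0.51 (adjusted p = 0.0150), S100b by 2.08 ± 0.72 (adjusted p = 0.0245) and Vim by 1.18 ± 0.37 (adjusted p = 0.0128). The values of Nes and Vim rest on the uneven control group: without postnatal control arrays 4 and 5 they were 0.77 and 0.52, under 2-fold, and Vim was also under 2-fold without array 4 (0.94) or array 5 (0.93) alone. Without arrays 4 and 5 the difference for S100b was larger, at 3.35, and Prom1 was again called lower, with its postnatal control mean at 3339. With the mean of all probe sets of a gene in place of the brightest, Gfap (-2.83, adjusted p = 0.0641), Slc1a3 (0.95) and Aldh1l1 (-0.36) were not called.

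The spread of the 10 genes within a group was widest in postnatal control, as a description with no test. The SD of their log2 signals had a median of 1.08 there, against 0.18 in embryonic control, 0.17 in embryonic transduced and 0.13 in postnatal transformed cells. For all genes these medians were 0.36, 0.23, 0.25 and 0.20. A pair of patterns can be read from the arrays. Nes, Vim and Prom1 were low on arrays 4 and 5, as was the mean of 9 genes of dividing cells, at 14.17, 14.10, 14.16, 11.29 and 11.13 on the log2 scale. S100b was high on those arrays, as was the summed signal of 7 genes of oligodendrocytes, at 62507, 50980.2, 56539, 134576 and 142871. Not each of the 7 was high there: 5 lay above background on arrays 4 and 5, against 6 on arrays 1 and 2 and 4 on array 3. The 8 genes of oligodendrocyte progenitors, all above background, summed to 275556 to 406629, also highest on arrays 4 and 5. This holds for the sum and not for each gene. Of the 8, Pdgfra (55306, 47447, 59138, 38111 and 37323) and Olig2 (72739, 68314, 77016, 64617 and 65766) were lowest on those arrays. Transformed postnatal cells were likewise low in dividing-cell genes, with sums of 28566 to 34660.5 against 23569 to 192512 in control. The part of cell division or of oligodendrocyte lineage cells in the values of Nes, Vim, Prom1 and S100b was not tested.

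Gfap, Aqp4, Aldh1l1 and Slc1a2 followed another order, highest on array 1 and lowest on array 3. The summed signal of the 23 measured genes of a second astrocyte list did the same, at 541487, 414282, 216986, 341838 and 326239, with 21 to 23 genes above background. That order holds for the sum and not for each gene: Mfge8, on this list, read 16862 on array 3 and was lowest on array 5, at 14898. Relative to its group mean on the log2 scale, Gfap was at 3.53 on array 1 and at -2.50 on array 3, while Fabp7 stayed between -0.12 and 0.07 on all 5 arrays. The table holds no label that separates these arrays. The log2 ratio of 3′ to 5′ control probe sets of Gapdh, a measure of RNA quality, had group means of -0.38, -0.30, -0.46 and -0.55 in the order embryonic control, embryonic transduced, postnatal control and postnatal transformed. The same ratio of Actb had 0.32, 0.42, 0.25 and 0.28, so from postnatal control to transformed cells the Gapdh ratio was lower and the Actb ratio higher.

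**Figure D3:**
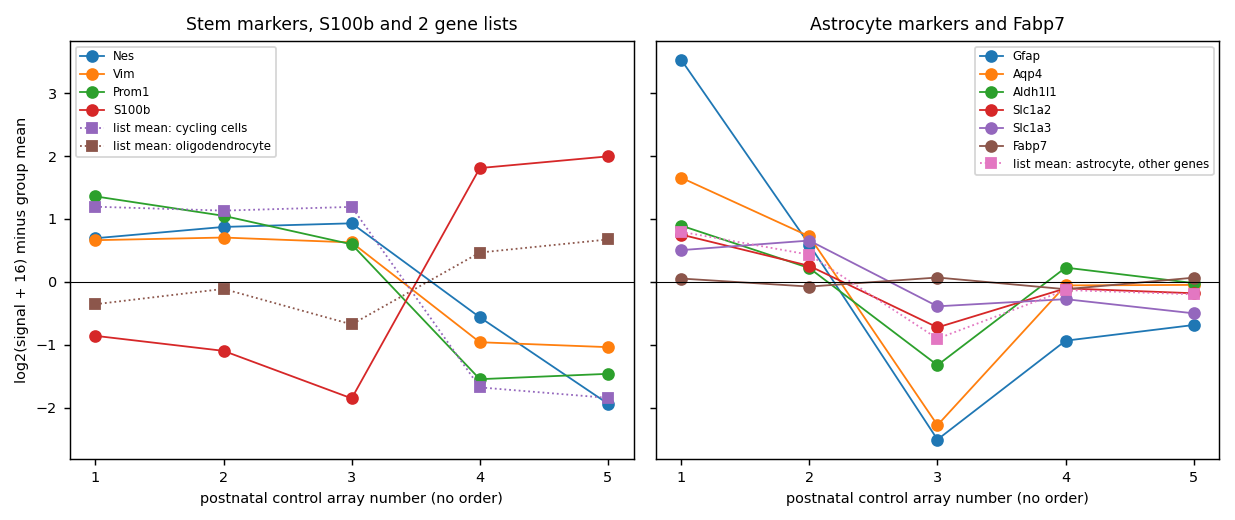
Log2(signal + 16) of each gene on the 5 postnatal control arrays minus its mean over them, with squares and dotted lines for the mean of a gene list. Lines only join the values of a gene, since the arrays have no order. On the left the stem markers and dividing-cell genes drop on arrays 4 and 5 where S100b is high. On the right Gfap, Aqp4, Aldh1l1, Slc1a2 and the astrocyte list are lowest on array 3 and Slc1a3 on array 5, while Fabp7 is flat.

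Control cells of both ages were compared as well, which also holds any difference in region, culture or preparation, and shares its groups with the responses above. In postnatal control, Gfap, S100b, Aldh1l1 and Aqp4 were higher than in embryonic control, and Nes and Prom1 were lower. These are 4 of 10 higher against 4.86% of all genes and 2 of 10 lower against 5.72%. The median was 0.10 over the 10 and -0.04 over all genes, and 6 of 10 did not overlap against 22.2% of all genes. S100b was 4.50 ± 0.51 higher (adjusted p = 5.00e-07), and every postnatal array exceeded every embryonic one. Gfap, below background in embryonic control, was at least 10.3-fold higher (adjusted p = 0.00116), a limit that went to 5.61-fold without postnatal array 1, 15.96-fold without array 3 and 15.0-fold without arrays 4 and 5. Aqp4 was 2.55 ± 0.61 higher (adjusted p = 0.00262) and Aldh1l1 1.28 ± 0.31 higher (adjusted p = 0.00255), both with array 3 of the postnatal group inside the embryonic range.

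On the stem side, Nes (-1.94 ± 0.36, adjusted p = 0.000232) and Prom1 (-2.23 ± 0.44, adjusted p = 0.000455) were lower in postnatal control, with no overlap. Both became smaller without arrays 4 and 5, at -1.11 and -1.23, still past 2-fold, and S100b went to 3.23. Vim (-0.82 ± 0.26, adjusted p = 0.0182), Fabp7 (-0.23 ± 0.07, adjusted p = 0.0111) and Slc1a3 (-0.64 ± 0.17, adjusted p = 0.00554) were lower by less than 2-fold. Without arrays 4 and 5 Vim was at -0.16. Slc1a2 differed by 0.43 ± 0.17 (adjusted p = 0.0600).

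Between the modified cells, which differ in age and in transduction or transformation, 3 of 10 genes were higher in the postnatal cells, against 11.7% of all genes, and 1 was lower, against 13.7%. The median was 0.14 against -0.14 for all genes, and 6 of 10 did not overlap against 46.6%. S100b stood 6.57 ± 0.51 higher in postnatal transformed cells (adjusted p = 2.27e-10), with the transduced group above background on 4 arrays. Slc1a2 was 1.95 ± 0.17 (adjusted p = 1.70e-09) and Fabp7 1.65 ± 0.07 (adjusted p = 6.18e-15) higher. Prom1 was lower, at a mean of 123 against 20738 (adjusted p = 3.93e-12). Slc1a3 was higher by 0.80 ± 0.17, under 2-fold (adjusted p = 0.00033). Nes (-0.34 ± 0.36, adjusted p = 0.463), Vim (0.36 ± 0.26, adjusted p = 0.263) and Gfap (-0.09 ± 0.80, adjusted p = 0.938) were not called, nor were Aldh1l1, with means of 223 and 260 (adjusted p = 0.764), and Aqp4, with 134 and 224 (adjusted p = 0.473).

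Ordered by mean signal of its brightest probe set, Gfap was highest in postnatal control at 5435 ± 9237 (SD, n = 5). Its other groups overlapped each other by that probe set, at 140 ± 45.6, 274 ± 141 and 279 ± 162 in embryonic control, embryonic transduced and postnatal transformed cells. Fabp7 ran from embryonic control (127283 ± 13853) over postnatal control (108204 ± 6541) and postnatal transformed (108132 ± 2197) to embryonic transduced (34427 ± 2373), and both postnatal groups did not differ beyond their spread. Slc1a3 had the same first and last group, at 18125 ± 2290 and 6088 ± 133. S100b was lowest in embryonic control (243 ± 41.5) and embryonic transduced cells (267 ± 48.7), which overlapped, then came postnatal control (10169 ± 10576) and postnatal transformed cells (26636 ± 1255). Prom1 went from embryonic transduced (20738 ± 851) over embryonic control (7694 ± 490.3) and postnatal control (2228 ± 1639) to postnatal transformed (123 ± 63.3), and no neighbouring groups of this order overlapped. Nes ran from embryonic control (9787 ± 1247) over embryonic transduced (8633 ± 985) and postnatal transformed (6855 ± 1146) to postnatal control (3184 ± 1889), and the first 3 overlapped with their neighbours. Slc1a2 was at 4607 ± 1775 in postnatal control and 4443 ± 164 in postnatal transformed cells, which overlapped, then at 3231 ± 125 in embryonic control and 1145 ± 152 in embryonic transduced cells. Embryonic control (3117 to 3381) also lay inside the range of postnatal control (2628 to 7334). Aldh1l1 and Aqp4 shared the highest group, postnatal control, at 2752 ± 1293 and 2273 ± 1831.

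The probe sets of a gene mostly moved alike. Nes and Vim have 3 each, with postnatal changes of 1.42, 1.01 and 0.99 and of 0.75, 0.60 and 0.76, so the third Nes probe set missed 2-fold. The 3 probe sets of Aqp4 were all lower in transformed cells, with means of 2273, 8408 and 4686 in control against 134, 64.4 and 32.7, the last of these under background on all 5 arrays. S100b had 2.20 and 1.97. For the difference of responses its probe sets had limma adjusted p of 0.0239 and 0.0729, so the second was not called. The 3 probe sets of Gfap had means of 5435, 1536 and 3401 in postnatal control and 279, 159 and 98.0 in transformed cells, with adjusted p of 0.00358, 0.117 and 0.0526 over all 45037 probe sets in limma, so only the brightest passed. These 3 were highest on postnatal control array 1, at 21873, 6091 and 14708, and lowest within that group on array 3, at 318, 41.3 and 6.8.

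For Slc1a3, 4 probe sets above background on all 20 arrays fell by 1.56, 1.56, 1.93 and 2.30 in the embryonic response. Its other 2, above background on 6 and 9 arrays, were at -0.44 and 0.52 and were not called. In comparisons where the brightest Slc1a3 probe set stayed under 2-fold, another of the 4 passed it. Between the modified cells the third was at 1.18 ± 0.16 (limma adjusted p = 1.34e-06). Between the controls the fourth was at -1.06 ± 0.28 (limma adjusted p = 0.00718). Slc1a2 gave -1.49 and, by its second probe set, -0.98 ± 0.33, short of 2-fold, and its remaining 3 were above background on 1 or 3 arrays only. The second Aldh1l1 probe set was above background on 4 arrays. It was called lower in the embryonic response, with means of 152 and 42.7 (limma adjusted p = 0.0364). In the postnatal response, at 98.1 and 50.6, it was not called (adjusted p = 0.276). Between the controls it was lower in postnatal cells, unlike the brightest probe set, but not called (adjusted p = 0.559). Prom1 and Fabp7 have 1 probe set each, so their values have no such check.

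**Figure D4:**
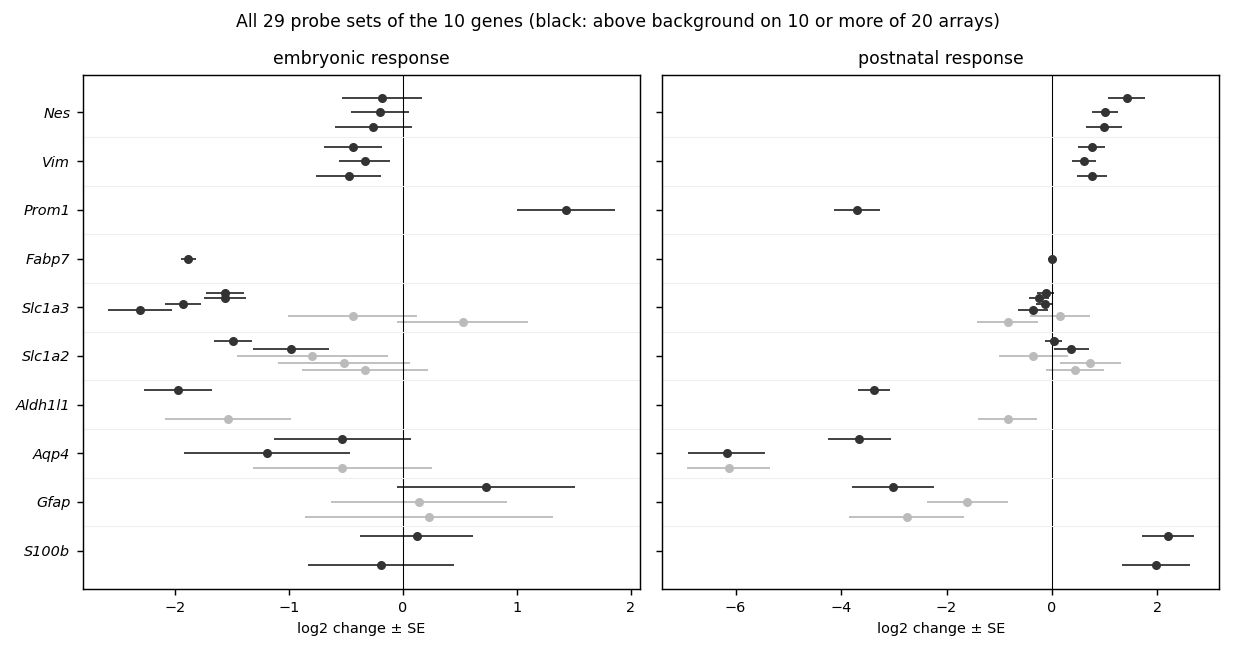
Log2 change ± SE of each of the 29 probe sets in the embryonic and postnatal responses, black where the probe set lay above background on at least 10 of 20 arrays and grey where it did not. The black points of Slc1a3 lie between -2.30 and -1.56 on the left and near 0 on the right, and the Aqp4 points reach -6.17 on the right.

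Other genes of the same cell states were read from lists that leave out the 10. Of 16 further neural stem and radial glial genes, 4 rose and 3 fell in the embryonic response, with a median of -0.41. Those with the smallest p were the Notch receptor Notch1 (-1.78 ± 0.12), the phosphatase Ptprz1 (-1.64 ± 0.06), the matrix protein tenascin C (Tnc, -1.36 ± 0.16) and Hopx, a marker of outer radial glia (1.35 ± 0.14). In the postnatal response 3 rose and 6 fell, with a median of -0.91 (-0.79 with a gene below background at its bound). Tnc rose by 2.81 ± 0.16, and the Notch target Hes5 (-3.71 ± 0.27), the gliogenic factor Sox9 (-2.59 ± 0.28, and -3.26 without control arrays 4 and 5) and Hopx (-1.67 ± 0.14) fell. Sox9 read 9089, 9179, 9313, 3119 and 2635 in postnatal control, low on the same arrays as Nes, and 668 to 1258 in transformed cells. Without control arrays 4 and 5, 2 of the 16 rose and 7 fell.

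Between the controls 1 of these 16 was higher and 9 were lower in postnatal cells, with a median of -1.04, but 3 were lower without arrays 4 and 5. Tnc (-3.89 ± 0.16), the Notch target Hes1 (-2.65 ± 0.28), Notch1 (-1.04 ± 0.12) and the RNA-binding protein Msi2 (-1.03 ± 0.11) had the smallest p, and without those arrays Notch1 (-0.96) and Msi2 (-0.95) fell short of 2-fold. Between the modified cells 1 was higher and 8 were lower, among them Hes5 (-5.77 ± 0.27), Hopx (-3.70 ± 0.14) and Pax6 (-2.58 ± 0.19), with Ptprz1 higher (1.62 ± 0.06).

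Of the 23 further astrocyte genes measured, 2 rose and 7 fell in the embryonic response (median -0.45). The potassium channel Kcnj10 (-3.55 ± 0.26), the fatty acid enzyme Acsbg1 (-2.62 ± 0.15) and the transcription factor Nfia (-1.10 ± 0.12) were among those that fell, as was the receptor Gpr37l1, with means of 1229 and 160 and 2 transduced arrays above background. In the postnatal response 2 rose and 9 fell (median -0.70), and 3 and 10 without control arrays 4 and 5. The bicarbonate transporter Slc4a4 (-3.27 ± 0.25), Ndrg2 (-1.45 ± 0.15) and Nfia (-1.39 ± 0.12) fell, and the glycolytic enzyme Aldoc rose (1.14 ± 0.07). In postnatal control against embryonic control 9 were higher and 2 lower (median 0.47), and 8 and 2 without postnatal control arrays 4 and 5. The higher ones were led by Sparcl1 (4.62 ± 0.25), the lipid carrier Apoe (3.47 ± 0.30) and Ndrg2 (1.70 ± 0.15), while Acsbg1 was lower (-1.61 ± 0.15). Between modified cells 7 were higher and 4 lower in postnatal transformed cells, with Sparcl1 at 7.55 ± 0.25, Kcnj10 at 4.28 ± 0.26 and the growth factor receptor Fgfr3 at -3.35 ± 0.15.

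Some of the other genes that reactive astrocytes switch on rose in transformed cells, in which Gfap fell. Of 15 measured, 7 rose and 1 fell in the embryonic response (median 0.56, or 0.54 with genes below background at their bound). In the postnatal response 8 rose and 7 were not called (median 1.5), and without control arrays 4 and 5 also 8 rose. The hyaluronan receptor Cd44 rose by 2.07 ± 0.27 in embryonic and by 4.60 ± 0.27 in postnatal cells. Hspb1 (2.16 ± 0.27), Timp1 (2.69 ± 0.55) and Gbp2 (at least 9.33-fold) rose in embryonic cells. In postnatal cells the copper carrier ceruloplasmin (Cp, 4.98 ± 0.41) rose, as did the protease inhibitor Serpina3n, from a mean of 149 with 2 control arrays above background to 16020, and the chemokine Cxcl10, from 92 with 1 array above to 1401. Between the controls 2 of the 15 were higher and 6 lower in postnatal cells, among them Cp (-3.47 ± 0.41) and Cd44 (-2.11 ± 0.27). Without postnatal control arrays 4 and 5, 2 were higher and 5 lower. Many of these genes also answer interferon or injury signals in other cell types.

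Of 15 genes of gliogenic signalling, 2 rose and 3 fell in each response, with medians of -0.08 in embryonic and -0.21 in postnatal cells. Of all genes 8.61% rose and 5.74% fell in the embryonic response, and 9.56% and 6.4% in the postnatal one. The differentiation inhibitor Id2 fell by 3.19 ± 0.11 and the receptor Lifr by 1.21 ± 0.10 in embryonic cells, while Socs3, an inhibitor of JAK-STAT signalling, rose by 3.17 ± 0.20 and Id1 by 1.59 ± 0.29. In postnatal cells Id1 fell by 2.47 ± 0.29, and without control arrays 4 and 5 it fell by 1.80, and the BMP receptor Bmpr1b was at least 8.53-fold lower. Stat3 (1.17 ± 0.10) and the cytokine receptor Il6st (1.02 ± 0.10) rose there, Il6st by less than 2-fold without control arrays 4 and 5 (0.98), which left 1 gene of the list higher and 4 lower. Among 10 other intermediate filament genes, the neuronal Ina (-2.71 ± 0.16) and Nefm (-1.25 ± 0.11) fell and the linker Plec rose (2.46 ± 0.41) in the embryonic response, and Plec (2.30 ± 0.41) alone passed in the postnatal one.

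Genes of neighbouring lineages moved beside the astroglial ones in embryonic cells. All 8 neuronal genes (median -2.14), 6 of 8 oligodendrocyte progenitor genes (median -3.73) and 3 of 7 oligodendrocyte genes fell with transduction, and summed neuronal signals went from 84409 to 90095 in control to 23107 to 25435. In the postnatal response 3 neuronal genes rose and 3 fell (2 without control arrays 4 and 5), and 2 of 8 oligodendrocyte progenitor genes fell. Of the 9 dividing-cell genes 8 fell in the postnatal response (9 without control arrays 4 and 5), while in the embryonic one their median was -0.03 and Mki67 read 27555 to 37623 over both groups. Whether the share of such cells in the cultures moved Fabp7, the transporters or Aldh1l1 was not tested.

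**Figure D5:**
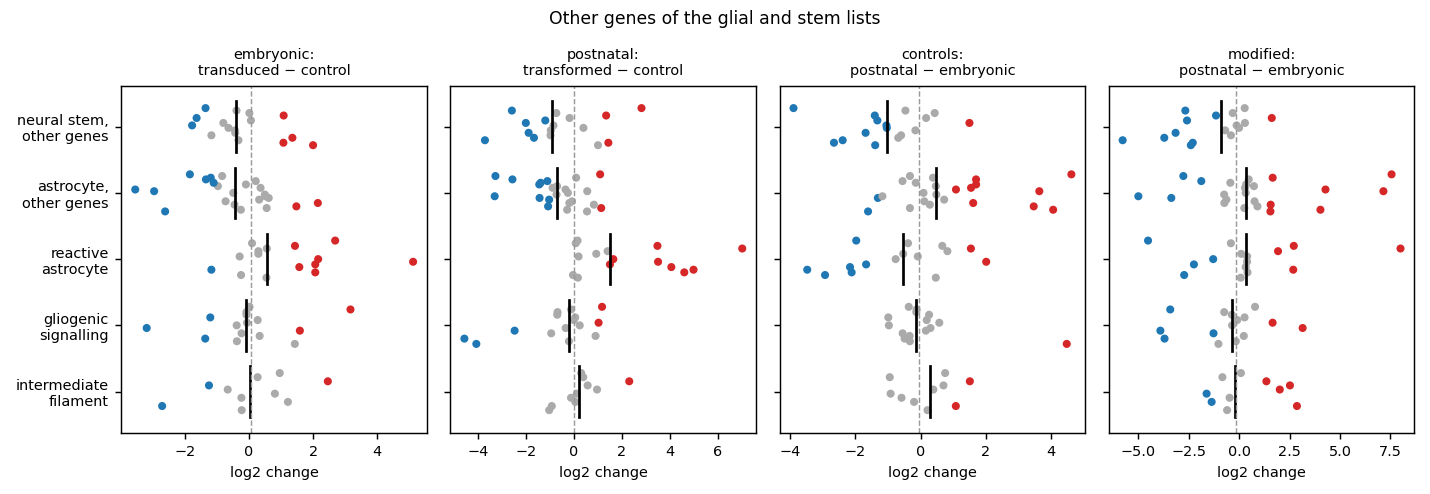
Log2 change of each measured gene of 5 lists that leave out the 10 markers, in 4 comparisons, red for risen, blue for fallen and grey for not called, with a black bar at the list's median and a dashed line at the median of all genes. The median bar of the reactive astrocyte list lies at 0.56 in the embryonic and 1.5 in the postnatal response, with 7 of 15 genes grey in each, and that of the neural stem list at -1.04 between the controls.

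The genes most like 4 of the markers were found by Pearson's r of log2(signal + 16) over the 20 arrays among 13525 genes above background on at least 10 arrays. They are given as a description, and the 20 points share 4 groups. For Gfap they were Tst (r = 0.889), Hsdl2 (0.873) and Mfge8 (0.847), the last of which is also on the astrocyte list, and Tst read 6643, 3839, 1219.8, 2392 and 1956 on the postnatal control arrays, highest and lowest on the same arrays as Gfap. For Nes they were Nck2 (0.930), Hprt (0.928) and Smtn (0.925). Fabp7 was matched most closely by Nnat (0.984), Ap4s1 (0.983) and Tmem223 (0.983), and Slc1a3 by Zfp521 (0.933), Get1 (0.917) and Adgrg1 (0.913).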

How the data were processed

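The deposited values are linear intensities, 1 per probe set (45101) and array (20, single-colour), and how the authors computed them (software, background, normalization) is not given in the sources used here. Trimmed means of the arrays (2% off each end) lay between 2500.01 and 2500.02, so the deposited intensities were used without further scaling. After removal of 64 controls, 932 probe sets with several symbols and 9160 not listed by the platform annotation were left unnamed. The brightest single-symbol probe set by mean log2 stands for each of 18193 genes, 9010 of which had more than 1. Background was the 95th percentile of 27 bacterial control probe sets per array. No pair of arrays, of 190, was identical.

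Values were fitted as log2(signal + 16), which understates changes of dim genes, with 4 group means in limma 3.58.1 (lmFit, eBayes with intensity trend, two-sided; R 4.3.3). The fit was tested on simulated data. All 10 markers were named, with up to 4 called genes of smallest p per list and the 3 most alike genes for 4 markers. The markers, lists and alternatives were chosen with earlier results of these data known. The precision of arrays is limited by their number, 5 per group. The alternatives were other offsets, scalings, probe set rules, filters, fits and left-out arrays.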

Additional observations from a re-analysis of the deposited data

Results flagged for a closer look

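The responses of embryonic and postnatal cells differed by the interaction test for all 10 genes. The differences on the log2 scale were -3.74 for Gfap, 1.60 for Nes, 1.18 for Vim, -5.13 for Prom1, 1.88 for Fabp7, 2.08 for S100b, 1.44 for Slc1a3, 1.52 for Slc1a2, -1.41 for Aldh1l1 and -3.12 for Aqp4. Those for Prom1, Aldh1l1, Aqp4 and Gfap are fitted sizes that depend on the offset of 16. Without postnatal control arrays 4 and 5 Nes (0.77) and Vim (0.52) were under 2-fold. With the mean of all probe sets Gfap, Slc1a3 and Aldh1l1 were not called. Transduction and transformation cannot be told apart from age in these values.

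In 2 of 40 groups of 5 arrays a single array stood far from the others, about what chance gives at 1 in 20. Prom1 was lowest on embryonic transduced array 5, at 19234, with a gap that made up 0.839 of the group's log2 range. Aqp4 was lowest on embryonic control array 4, at 154, with a gap of 0.716 of the range.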

How the results depend on the processing

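The number of the 10 genes called stayed within 1.5 times under every alternative run, at 4 to 5 for the embryonic response, 5 to 7 for the postnatal response, 7 to 10 for their difference, 5 to 9 between the controls and 3 to 5 between the modified cells. Leaving out each array in turn gave 5 to 5, 5 to 6, 9 to 10, 6 to 6 and 4 to 4. Array numbers did not pair the samples: same-numbered arrays deviated together with correlations of -0.053 to 0.032 in embryonic and -0.0095 to 0.020 in postnatal cells. With the number as a replicate block 5, 6, 10, 6 and 4 genes were called and no call changed, and the same counts came for the 3 response comparisons with the block within each age. Chosen after seeing the data, the block in fits of only the compared groups gave 5, 5, 6 and 4 for the 4 comparisons of 2 groups, and the difference, which needs all groups, has no such fit. Leaving out postnatal control arrays 4 and 5 for the gene lists was also chosen afterwards.

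Changes that reversed were all uncalled. S100b in the embryonic response was at -0.10 with quantile normalization and -0.034 with the mean of all probe sets. In the postnatal response Fabp7 and Slc1a2 were at -0.0094 and -0.029 with array weights and -0.015 and -0.064 without control arrays 4 and 5. Over single left-out arrays Fabp7 ran from -0.028 to 0.018, Slc1a2 from -0.15 to 0.22 and Slc1a3 from -0.25 to 0.042. Slc1a2 between the controls was at -0.23 with the mean of all probe sets. Between the modified cells Gfap was at 0.17, 0.99 and 0.10 with quantile normalization, the mean of all probe sets and array weights (-0.50 to 0.46 over left-out arrays), and Aldh1l1 at 0.16 and 0.013 with the first 2 of these (-0.30 to 0.033). The mean of all probe sets also ended the calls of Slc1a2 in the embryonic response (-0.82) and between the modified cells (0.83) and of Aldh1l1 between the controls (0.37). It gave Aqp4 -5.32 in the postnatal response, and array weights put the difference for Vim at 0.83. The cause was not tested.

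Without the fold threshold 7162 genes in place of 2611 were called in the embryonic response, 7692 in place of 2904 in the postnatal one, 7083 in place of 3475 for the difference, 5830 in place of 1925 between the controls and 9479 in place of 4634 between the modified cells. Quantile normalization moved the median of all genes from -0.07 to 0.04 for the difference and from -0.14 to 0.00 between the modified cells. In the embryonic response it moved that median from 0.08 to -0.02 and the share of called genes that were higher from 60.0% to 51.2%, while 75th percentile centring gave 53.6%.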
